A study of Mus musculus with 10 samples.

Results

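Upp1 encodes uridine phosphorylase 1, and it was examined here with 9 further enzymes that make or recover pyrimidine nucleotides: Uck1, Uck2, Uckl1, Umps, Cad, Dhodh, Cda, Dck and Tymp. The list was drawn up by name with the group differences of these arrays known, among them that the Upp1 probes had the largest of all. These are 10 of 21946 named genes on the array, measured by 20 of its 46237 probes. The arrays were Illumina mouse expression bead arrays, which report 1 signal per probe. Probes of a gene are numbered below by falling mean signal over all arrays. Because the group difference entered the choice, the differences of these 10 genes are given as a description with their errors, and no test of them is made.

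The study compared sorted splenic monocytes of C57BL/6 mice aged 3 months. The TCL1-AT group (5 arrays) came from mice that had received murine chronic lymphocytic leukaemia cells of Eµ-TCL1 mice 6 weeks earlier, and the WT group (5 arrays) from control mice with no intervention. The WT samples are labelled as pools of unstated size, and the labels do not say whether each TCL1-AT sample was a separate mouse, so errors and p-values measure the spread between these samples, which may be technical. Cells of both groups were sorted as lineage negative, CD11b positive, F4/80 intermediate, CD11c low to intermediate and MHC class II low.

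Pyrimidine nucleotides are either built from small precursors or salvaged from nucleosides. In de novo synthesis, CAD carries out the opening steps, DHODH oxidises dihydroorotate at the inner mitochondrial membrane, and UMPS completes UMP. In salvage, the uridine-cytidine kinases UCK1 and UCK2 phosphorylate uridine and cytidine, DCK phosphorylates deoxycytidine, and cytidine deaminase (CDA) turns cytidine into uridine. Uridine phosphorylase works against that salvage: it splits uridine into uracil and ribose 1-phosphate, whose sugar can enter central carbon metabolism. Thymidine phosphorylase (TYMP) does the same for thymidine.

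The sequence before the Upp1 start site is shown because Upp1 is the gene with the largest difference on these arrays. RefSeq gives 3 start sites for Upp1 in build GRCm38.p6, all on the plus strand of chromosome 11, and the windows run from 250 bases before a start to 50 after it. Windows 1 and 3 follow, 5′ to 3′, with a match to the AP-1 motif in capitals.
Upp1 window 1, chr11:9117758-9118057: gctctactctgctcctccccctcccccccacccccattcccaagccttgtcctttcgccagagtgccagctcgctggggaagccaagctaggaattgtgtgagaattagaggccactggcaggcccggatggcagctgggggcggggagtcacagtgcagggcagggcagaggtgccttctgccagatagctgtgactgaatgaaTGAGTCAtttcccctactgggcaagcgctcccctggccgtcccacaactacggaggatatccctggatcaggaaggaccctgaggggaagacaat
Upp1 window 3, chr11:9118257-9118556: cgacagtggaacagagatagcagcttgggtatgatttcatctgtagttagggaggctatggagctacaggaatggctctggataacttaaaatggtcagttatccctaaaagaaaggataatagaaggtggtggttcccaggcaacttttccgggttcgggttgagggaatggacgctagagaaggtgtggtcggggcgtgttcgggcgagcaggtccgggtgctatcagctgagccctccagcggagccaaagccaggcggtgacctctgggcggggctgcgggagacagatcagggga
Window 2 overlaps window 1 and holds the same AP-1 match. Counted from the start site, the match lies at -45 to -39 in window 1 and at -140 to -134 in window 2. Further motifs were searched on both strands. The AP-1 motif was spelled TGANTCA, where N is any base, and was present in 7.81% of all 32851 mouse windows. The STAT motif TTCNNNGAA was present in 8.3%. The E-box CACGTG was present in 7.15% of windows. The TATA box was spelled TATAAA and was present in 13.6%. The NF-kB motif, GGGA and then 2 free bases before TTCC, was present in 1.47%. The interferon-stimulated response element, a pair of GAAA repeats with 2 free bases between them, was present in 3.44%. None of these motifs overlapped another in the Upp1 windows. RefSeq windows were matched for 9 of the 10 genes (13 windows), and the only other match was a TATA box in the window of Umps. These are matches of letters and were not set against any binding data.

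Upp1 signal was high on every TCL1-AT array and close to the array background on every WT array. Probe 1 (ILMN_2959291) gave normalized log2 signals of 11.42, 11.38, 11.51, 11.18 and 11.40 on TCL1-AT 1 to 5, against 5.59, 4.97, 4.98, 5.26 and 4.81 on WT 1 to 5. The groups did not overlap, and the lowest TCL1-AT array stood far above the highest WT array, WT 1. Its mean was 11.38 ± 0.12 over TCL1-AT arrays and 5.12 ± 0.31 over WT arrays (SD, n = 5 each), a log2 difference of 6.26 with a standard error (SE) of 0.14, or 76.6-fold. Before any correction the same probe read 2212 to 2886 intensity units in TCL1-AT, against 87.8 to 117 in WT. The median probe of an array read 90.3 to 93.4 in TCL1-AT and 80.4 to 92.1 in WT, so WT signal of Upp1 lay near the level of the median probe. The 76.6-fold therefore depends on the background correction, which the SE does not cover. With normexp by maximum likelihood (offset 50) the log2 difference was 5.06.

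The other probes of Upp1 gave the same picture. Probe 2 (ILMN_2959292) gave 9.94, 9.91, 10.08, 9.74 and 9.90 on TCL1-AT 1 to 5, against 4.14, 4.63, 4.57, 4.19 and 4.42 on WT 1 to 5. It was detected, at a detection p under 0.05, on 5 of 5 TCL1-AT arrays and 3 of 5 WT arrays, and its log2 difference was 5.52 (SE 0.12). Probe 3 (ILMN_2959293) gave 9.58, 9.55, 9.82, 9.20 and 9.53 on TCL1-AT 1 to 5, against 4.46, 4.32, 4.10, 4.29 and 4.25 on WT 1 to 5. WT signal of probe 3 was not above background on any array, so on the deposited scale TCL1-AT was at least 36.9-fold higher, a bound taken against the higher of the probe's own signal and the lowest detected signal of each WT array. That bound depends on the background correction: the uncorrected mean intensities of probe 3 were 797 ± 117 over TCL1-AT arrays and 84.0 ± 8.0 over WT arrays (SD, n = 5 each). Probe 1, in contrast, was detected on all 5 WT arrays, with detection p-values from 3.64e-06 to 0.00256.

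After normalization all 3 probes ranked the TCL1-AT arrays alike at both ends: TCL1-AT 3 was the highest and TCL1-AT 4 the lowest. The spread among TCL1-AT arrays was small beside the difference, with SDs of 0.12, 0.12 and 0.22 for probes 1 to 3. On WT arrays the probes did not share an order: WT 1 was the highest array for probes 1 and 3 and the lowest for probe 2. The 3 probes of Upp1 held ranks 1, 2 and 3 by size of fitted difference among the 20241 probes tested.

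**Figure D1:**
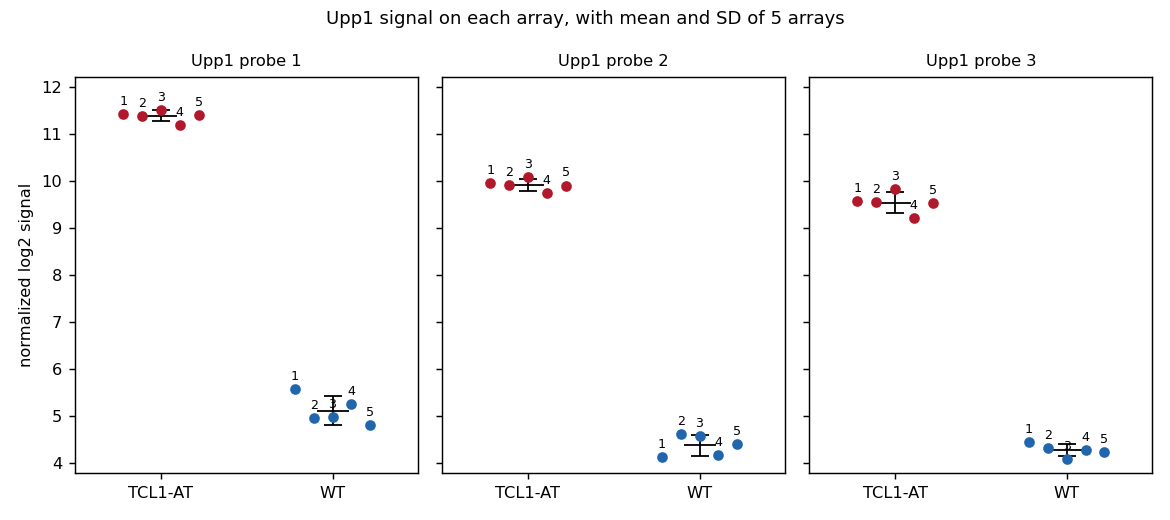
Normalized log2 signal (vertical axis) of the 3 Upp1 probes on each array, TCL1-AT at the left and WT at the right of each panel; points are arrays numbered by replicate, and bars give the mean and SD of 5 arrays. TCL1-AT arrays lie between 9.20 and 11.51 and WT arrays between 4.10 and 5.59.

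Of the 20 probes of the 10 genes, 17 were detected on at least 5 arrays and entered the fit. The single probes of Uckl1 and Cda and the dimmer probe of Dhodh were detected on 0 of 10 arrays, and no difference is given for them. In the fit over all 20241 probes (limma, Benjamini-Hochberg adjusted p under 0.05), TCL1-AT was higher at 12.1% and lower at 14.8%, 27.0% in all. By that rule 7 of the 17 probes were called higher and 1 lower, and without Upp1 the counts were 4 and 1 of 14. The genes were chosen on this contrast, so these counts describe the choice. Without Upp1 the median log2 difference was -0.01, against 0.01 over all tested probes.

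The uridine-cytidine kinase gene Uck2 had a higher signal in TCL1-AT at its 2 brighter probes. Probe 1 gave 7.20, 6.74, 6.54, 6.91 and 6.60 on TCL1-AT 1 to 5, against 6.15, 6.61, 6.38, 6.54 and 6.31 on WT 1 to 5. Its groups overlapped, with TCL1-AT 3 below WT 2, and its log2 difference was 0.40 (SE 0.14). Probe 2 gave 6.20, 6.24, 6.17, 6.12 and 6.06 on TCL1-AT 1 to 5, against 5.70, 5.48, 5.88, 5.79 and 5.62 on WT 1 to 5. Probe 2 was the one probe outside Upp1 whose groups did not overlap, as 19.9% of all tested probes did, with a log2 difference of 0.47 (SE 0.10). Probe 3 of Uck2 was dimmer and differed by 0.08 (95% confidence interval -0.22 to 0.38).

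Uck1, which encodes the other uridine-cytidine kinase, had 4 probes that disagreed in direction. The log2 differences were -0.19 (SE 0.13) for probe 1, 0.40 (SE 0.14) for probe 2, 0.14 (SE 0.16) for probe 3 and -0.39 (SE 0.15) for probe 4. Probe 2 gave 6.06 to 6.62 on TCL1-AT arrays, against 5.59 to 6.18 on WT arrays, while probe 4 gave 4.78 to 5.23 on TCL1-AT arrays, against 4.94 to 5.75 on WT arrays. The groups overlapped at all 4 probes, and no single direction can be given for this gene. Which part of the transcript each probe reads is not given in the sources used here.

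Among the de novo enzymes, Umps had the only probe that met the call rule. Probe 1 of Umps gave 7.14, 7.05, 6.96, 7.35 and 7.19 on TCL1-AT 1 to 5, against 6.68, 6.68, 7.02, 6.22 and 6.56 on WT 1 to 5. The groups overlapped through WT 3, which lay above TCL1-AT 3, and the log2 difference was 0.50 (SE 0.14), or 1.42-fold. The dimmer probes 2 and 3 of Umps differed by 0.01 (95% confidence interval -0.31 to 0.33) and -0.12 (-0.47 to 0.23). Cad gave 5.26 to 5.76 on TCL1-AT arrays, against 5.36 to 5.55 on WT arrays, a log2 difference of -0.04 with an interval of -0.28 to 0.20. The brighter probe of Dhodh gave 6.33 to 7.00 on TCL1-AT arrays, against 6.60 to 6.97 on WT arrays, a log2 difference of -0.08 with an interval of -0.36 to 0.20. The intervals of Cad and Dhodh exclude a change of the size seen at Upp1 and leave room for small changes either way.

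The deoxycytidine kinase gene Dck was lower in TCL1-AT. It gave 6.62, 6.09, 6.30, 6.18 and 6.31 on TCL1-AT 1 to 5, against 6.74, 6.57, 6.53, 6.71 and 6.55 on WT 1 to 5. TCL1-AT 1 alone reached into the WT range, and the log2 difference was -0.32 (SE 0.11). Tymp, the thymidine counterpart of Upp1, was dim, detected on 3 of 5 TCL1-AT arrays and 5 of 5 WT arrays. It gave 4.28 to 4.93 on TCL1-AT arrays, against 4.35 to 5.08 on WT arrays, a log2 difference of -0.11 (SE 0.18).

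**Figure D2:**
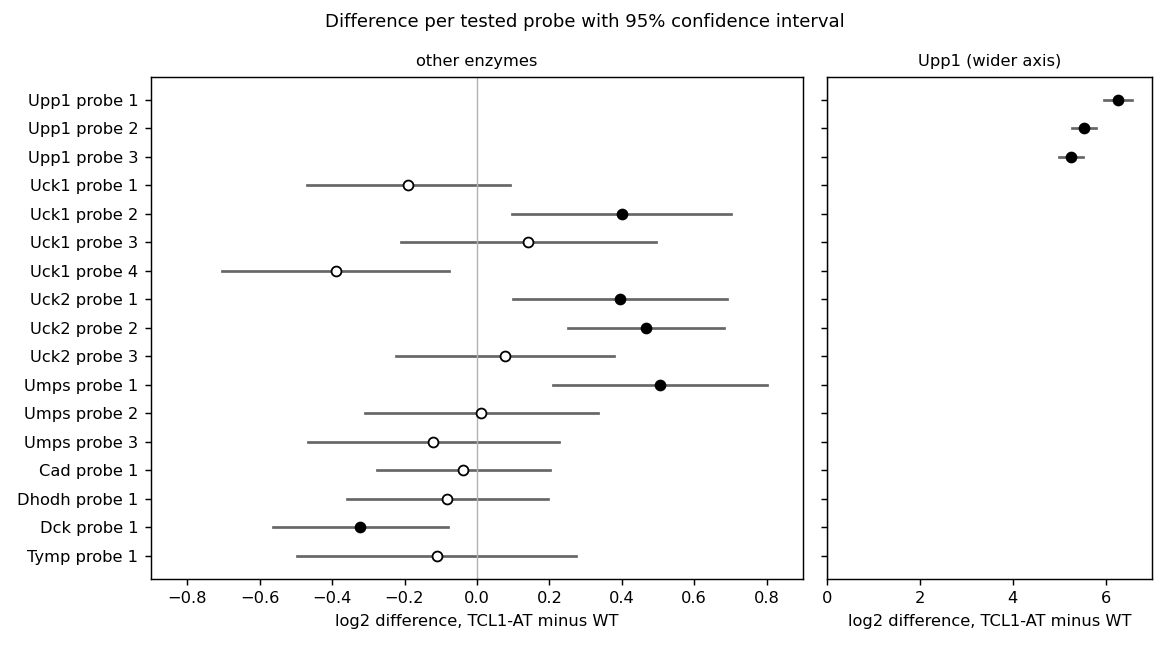
Log2 difference, TCL1-AT minus WT, of each tested probe with its 95% confidence interval; the left panel holds the other enzymes and the right panel Upp1 on a wider axis. Filled points met the call rule; the differences of the other enzymes run from -0.39 to 0.50, and those of Upp1 probes 2 and 1 are 5.52 and 6.26. The point of Upp1 probe 3 is a fitted value whose WT side was below background.

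Outside Upp1, 2 probes met the rule under nearly every alternative way of processing: probe 2 of Uck2 and probe 1 of Umps each did so in 17 of 18. Probe 1 of Uck2 met it in 6 of 18, probe 2 of Uck1 in 7 of 18 and Dck in 5 of 18, so those differences sit at the edge of the rule. Probe 4 of Uck1, not called in the main fit, was called lower in 2 of 18. The 10 genes were chosen with their differences known, so these counts describe how the calls depend on processing and test nothing. For Upp1, chosen for its size, only the differences are given. Over the alternatives in which the probes were fitted, these were 5.06 to 6.37 for probe 1, 3.94 to 5.76 for probe 2 and 3.63 to 5.33 for probe 3. Probe 3 passed the detection filter through its 5 TCL1-AT arrays alone. The lowest value of each came from normexp background correction by maximum likelihood with an offset of 50.

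**Figure D3:**
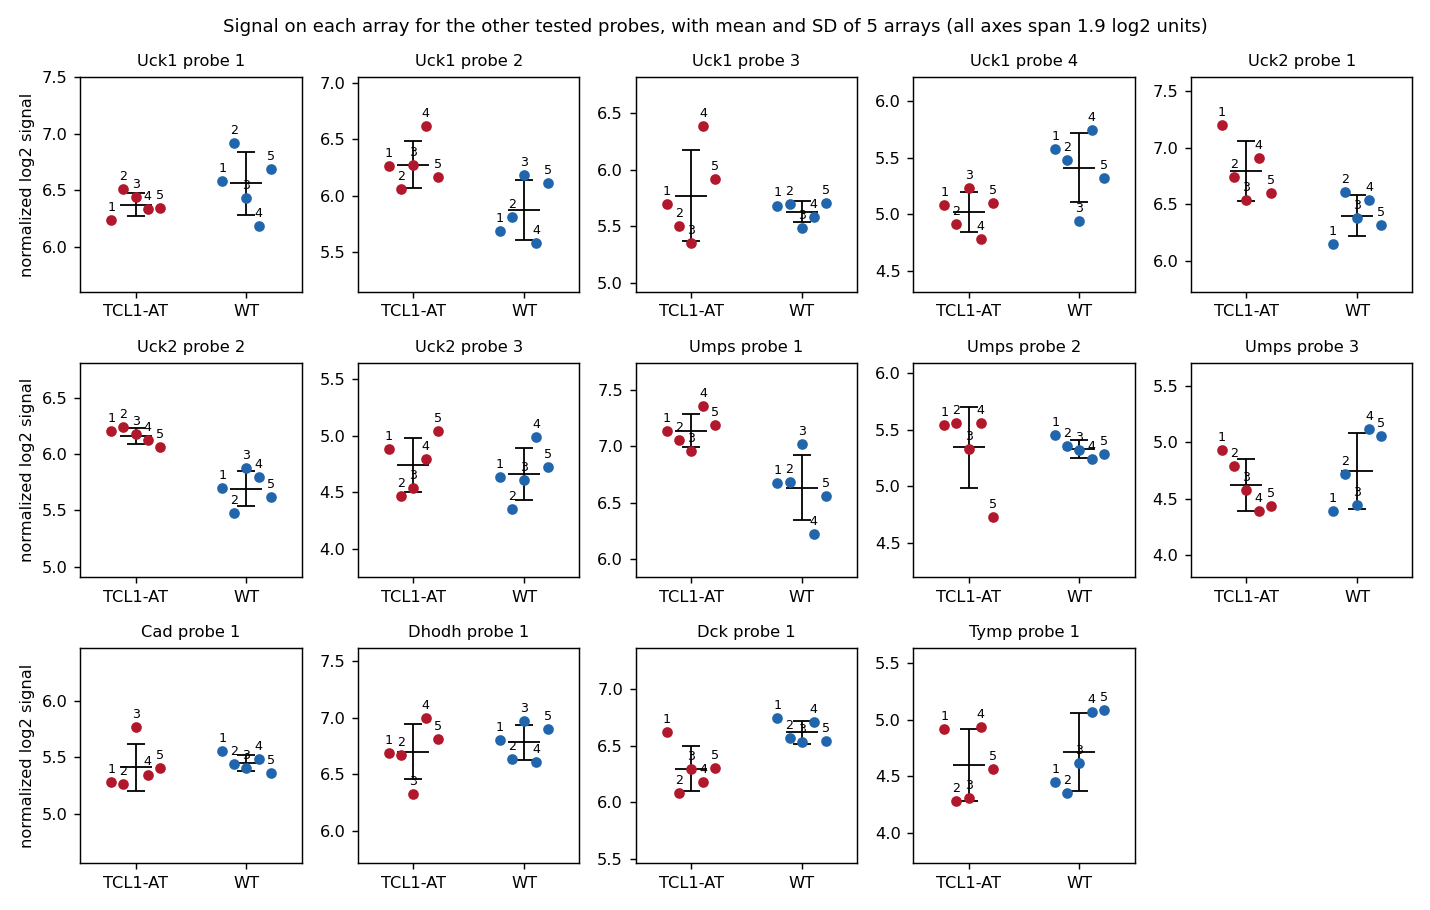
Normalized log2 signal (vertical axes of equal span) of the 14 tested probes outside Upp1, TCL1-AT at the left and WT at the right of each panel; points are arrays numbered by replicate, bars the mean and SD of 5 arrays. Only probe 2 of Uck2 shows no overlap, with TCL1-AT at 6.06 to 6.24 and WT at 5.48 to 5.88.

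Markers were read to see which cells the sort held, beside 12.7% called higher and 16.5% called lower over all named genes. Of 10 monocyte markers, 8 were tested, among them Csf1r with mean log2 signals of 11.55 in TCL1-AT and 11.84 in WT (n = 5 each, not called). Ccr2 was detected on fewer than 5 arrays. The summed signal of the 9 monocyte markers on the array was 42233 to 45141 in TCL1-AT and 35311 to 38743 in WT. That sum is weighted to the brightest markers, Lyz2 and Cebpb. The mean log2 signal of the 8 tested markers overlapped, at 10.63 to 10.89 in TCL1-AT and 10.76 to 10.96 in WT. Their median log2 difference was -0.16. Cebpb was called higher, as was the brightest probe of Lyz2 (0.29), whose other 2 probes were called lower (-1.71 and -0.73), and Adgre1, which encodes F4/80, was called lower (log2 difference -0.91). Of 10 B cell markers, 3 were tested and Cd79b was called higher (0.60), while Pax5, Ebf1, Blk, Fcmr and Vpreb3 were detected on fewer than 5 arrays. Ms4a1 and Cd22 were not called (-0.02 and -0.21). The summed signal of the 8 B cell markers on the array was 670 to 1195 in TCL1-AT and 519 to 590 in WT. That sum takes in the markers not tested, and Cd79b was the brightest tested (9.65 on TCL1-AT 3). The sum was highest on TCL1-AT 3, the array that was also highest for normalized Upp1 signal. Before normalization TCL1-AT 2 was the highest array for all 3 Upp1 probes. Upp1 probe 1 differed by 6.23 without TCL1-AT 3. This cannot separate Upp1 from the B cell signal, because every TCL1-AT array had a higher sum than every WT array. Of 9 T cell markers, 6 were tested and 4 were called lower (summed signal 222 to 265 in TCL1-AT and 487 to 619 in WT). Of 6 erythroid markers, 3 were tested and 2, both globins, were called higher (1698 to 4647 in TCL1-AT and 304 to 1323 in WT). Of 7 NK cell markers, 4 were tested and Prf1, the brightest of them, was called higher (1.48). Klrd1 was lower at an unadjusted p under 0.05 by limma (-0.56), and Klrb1c and Nkg7 differed by 0.04 and 0.02. The summed NK cell signal was 1337 to 3540 in TCL1-AT and 839 to 1182 in WT. Of 5 red pulp macrophage markers, 4 were tested, Spic was called higher and Vcam1 lower (1148 to 1359 in TCL1-AT and 740 to 895 in WT). Of 8 dendritic cell markers, 6 were tested. Zbtb46 (1.57) and Bst2 (0.95), the brightest of them, were called higher and Cd209a (-0.91) lower (summed signal 708 to 1146 in TCL1-AT and 455 to 763 in WT). Of 10 neutrophil markers 9 were tested and 0 called by limma, with 1 at an unadjusted p under 0.05 (summed signal 19891 to 37482 in TCL1-AT and 23225 to 36130 in WT). The part of these shifts in the differences of Upp1 and the other enzymes was not tested, and in bulk RNA fewer cells of a type and less RNA per cell cannot be told apart.

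The rest of pyrimidine metabolism was read from 53 further genes listed by function, of which 42 were tested, each by its brightest probe. Of these, 5 rose (Slc29a1, Slc28a2, Tk1, Dut and Nt5c3), 10 fell and 27 were not called. Over 11506 named genes, TCL1-AT was called higher at 12.7% and lower at 16.5%. The groups did not overlap at 10 of the 42 genes, against 22.7% of all named genes. The list's median log2 difference was -0.10, against 0.01 over all named genes, and nothing particular to the list was read from these counts. The same shares of 12.7% and 16.5% stand beside the counts of the shorter lists by function below, from which no direction of a pathway was read. With the raw median signal of each array as a covariate, 6 of the 15 calls were kept (Slc28a2, Slc29a1, Tk1, Nme3, Nme4 and Dctpp1), and the other 9 were lost. That covariate differed between the groups (90.3 to 93.4 in TCL1-AT, 80.4 to 92.1 in WT), so a lost call need not mean a smaller difference. The difference of Slc29a3, for instance, stayed between -0.67 and -0.50 in all 18 alternatives. Other ranges were wider, such as -0.66 to -0.26 for Rrm2.

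Uridine reaches the cell and its enzymes through nucleoside transporters, and 2 of 5 tested rose and 1 fell. Slc29a1, which encodes the equilibrative transporter ENT1, gave 8.80, 9.09, 9.16, 9.17 and 9.14 on TCL1-AT 1 to 5, against 8.24, 7.80, 8.03, 7.99 and 8.15 on WT 1 to 5. The groups did not overlap, and the log2 difference was 1.03 (SE 0.11, adjusted p = 1.81e-05), with its other probe also called higher. Slc28a2, which encodes the sodium-coupled transporter CNT2, gave 5.71 to 6.73 on TCL1-AT arrays, against 4.93 to 5.56 on WT arrays, a log2 difference of 0.96 (SE 0.17, adjusted p = 0.00101). Slc29a3, which encodes the lysosomal transporter ENT3, fell by 0.56 on the log2 scale (SE 0.14, adjusted p = 0.0108), with overlap because TCL1-AT 4 lay within the WT range. Slc29a2 and Slc28a3 were dim and not called.

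Of 5 tested genes of pyrimidine breakdown and ribose phosphate use, read by their brightest probes, 2 fell and 0 rose in the limma fit, also at an unadjusted p under 0.05. Upb1, which encodes the enzyme of the last step from uracil to beta-alanine, gave 6.45 to 7.23 on TCL1-AT arrays, against 7.29 to 7.59 on WT arrays. Its groups did not overlap, the log2 difference was -0.63 (SE 0.14, adjusted p = 0.00527), and its other 2 probes were also called lower. Rbks, which encodes ribokinase, fell by 0.66 (SE 0.16, adjusted p = 0.00862). Upp2, the paralogue of Upp1, averaged a log2 signal of 4.81 ± 0.32 over TCL1-AT arrays, against 4.65 ± 0.11 over WT arrays (SD, n = 5 each), a log2 difference of 0.16 (adjusted p = 0.442). Dpyd and Dpys, which encode the enzymes that act on uracil before Upb1, were not detected on enough arrays to be tested, and neither was Pgm2. The brightest probe of Pgm1 was not called (-0.20), and its other probe was called lower (-0.37).

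PRPP, the activated ribose that UMPS uses, is made by the PRPP synthetases, and of 5 genes of this step 2 fell and 0 rose in the limma fit, with 1 (Prps1l3, 0.28) higher at an unadjusted p under 0.05. Prps2 fell by 0.53 (SE 0.13, adjusted p = 0.00891) without overlap, a call also lost under median scaling, whereas Prps1 differed by -0.08 (adjusted p = 0.649). Prpsap2, which encodes a partner protein of the synthetases, fell by 0.65 at its brightest probe (SE 0.23, adjusted p = 0.0493), with its other probe at 0.24. That call was lost in 12 of 18 alternatives, among them leaving out TCL1-AT 1, 3, 4 or 5 or WT 2, 3 or 4, with adjusted p-values from 0.068 to 0.115.

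Of 10 tested genes that phosphorylate pyrimidine nucleotides or make CTP, 3 fell and 0 rose in the limma fit, also at an unadjusted p under 0.05. Cmpk1, the UMP and CMP kinase, gave 9.52 to 9.84 on TCL1-AT arrays, against 9.84 to 10.78 on WT arrays, a log2 difference of -0.62 (SE 0.19, adjusted p = 0.0252). WT 2 and WT 4 were the high arrays, and the call was lost without WT 2 (adjusted p = 0.0615), without WT 4 (0.0655) and without TCL1-AT 5 (0.0555). The nucleoside diphosphate kinase genes Nme3 and Nme4 fell by 0.50 (SE 0.10, adjusted p = 0.00169) and 0.62 (SE 0.15, adjusted p = 0.00639), while 2 further probes of Nme4 were not called. The brightest probes of the CTP synthase genes Ctps and Ctps2 differed by 0.02 and 0.20 and were not called, while 1 dimmer probe of Ctps was called higher (0.31). Of the 5 dimmer probes of Nme7, 2 were called lower (the lower at -0.54), and its brightest was not called.

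In deoxypyrimidine supply, 2 of 11 tested genes were called higher and 2 lower, beside 12.7% higher and 16.5% lower over all named genes. Tk1, the cytosolic thymidine kinase, gave 7.75, 8.01, 7.69, 6.99 and 7.46 on TCL1-AT 1 to 5, against 5.90, 6.05, 6.47, 6.87 and 6.31 on WT 1 to 5. The groups did not overlap, TCL1-AT 4 being the low array of its group and WT 4 the high one. The log2 difference was 1.26 (SE 0.20, adjusted p = 0.000424), or 2.40-fold, and its other 3 probes were also called higher. Dut, which encodes dUTPase, rose by 0.49 (SE 0.13, adjusted p = 0.0131), with its other probe at 0.12 and not called. Dctpp1, which encodes a dCTP pyrophosphatase, gave 6.61 to 6.92 on TCL1-AT arrays, against 7.24 to 7.52 on WT arrays, a log2 difference of -0.63 (SE 0.10, adjusted p = 0.000561). Rrm2, the small subunit of ribonucleotide reductase, fell by 0.58 (SE 0.12, adjusted p = 0.00239), also without overlap. Samhd1, which encodes a dNTP hydrolase, differed by 0.27 at its brightest probe (adjusted p = 0.0651), and 1 dimmer probe was called higher (0.60). Tyms, the thymidylate synthase gene, differed by -0.09 (adjusted p = 0.7).

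Of 6 tested nucleotidase genes, which return nucleotides to nucleosides, 1 rose and 0 fell in the limma fit, with Nt5c and Nt5c2 lower at an unadjusted p under 0.05. A dimmer probe of Nt5c2 was called lower (-0.62). Nt5c3, a pyrimidine 5′-nucleotidase, gave 8.85 to 9.11 on TCL1-AT arrays, against 8.25 to 8.85 on WT arrays, a log2 difference of 0.46 (SE 0.12, adjusted p = 0.0138). Its call was lost under median scaling and with the array's raw signal as a covariate.

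**Figure D4:**
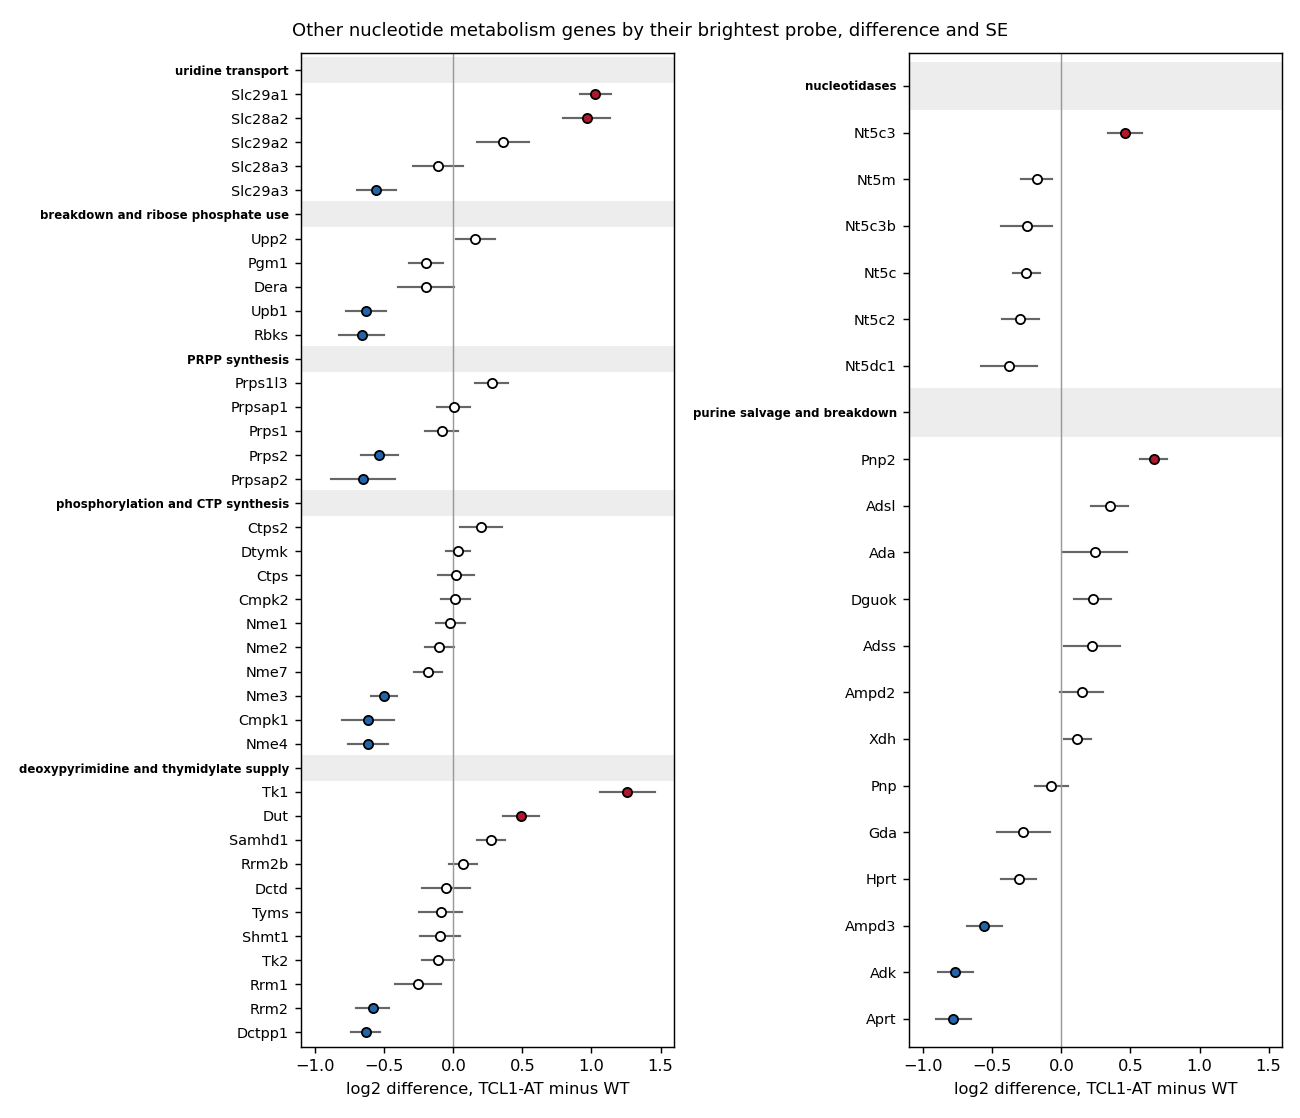
Log2 difference, TCL1-AT minus WT, and its SE for the brightest probe of each tested gene of nucleotide metabolism outside the 10 enzymes, grouped by role. Red points were called higher, blue points lower and white points were not called; the differences run from -0.78 (Aprt) to 1.26 (Tk1).

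The purine salvage list held 13 genes, all tested: 1 rose and 3 fell by their brightest probes, beside 12.7% higher and 16.5% lower over all named genes, and nothing particular to this list was read from the counts. Pnp2, a purine nucleoside phosphorylase gene that carries out on purines the reaction that Upp1 carries out on uridine, rose by 0.67 (SE 0.10, adjusted p = 0.00019). Its paralogue Pnp differed by -0.07 at its brightest probe (adjusted p = 0.688), with its other probe called higher at 0.45, and signal of such similar genes cannot be separated with certainty. Aprt, Adk and Ampd3, which encode adenine phosphoribosyltransferase, adenosine kinase and an AMP deaminase, fell by 0.78, 0.77 and 0.56 (adjusted p = 0.000484, 0.00048 and 0.00446). The brightest probe of Hprt was not called (-0.31, adjusted p = 0.0918), and 1 of its 2 dimmer probes was called lower.

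**Figure D5:**
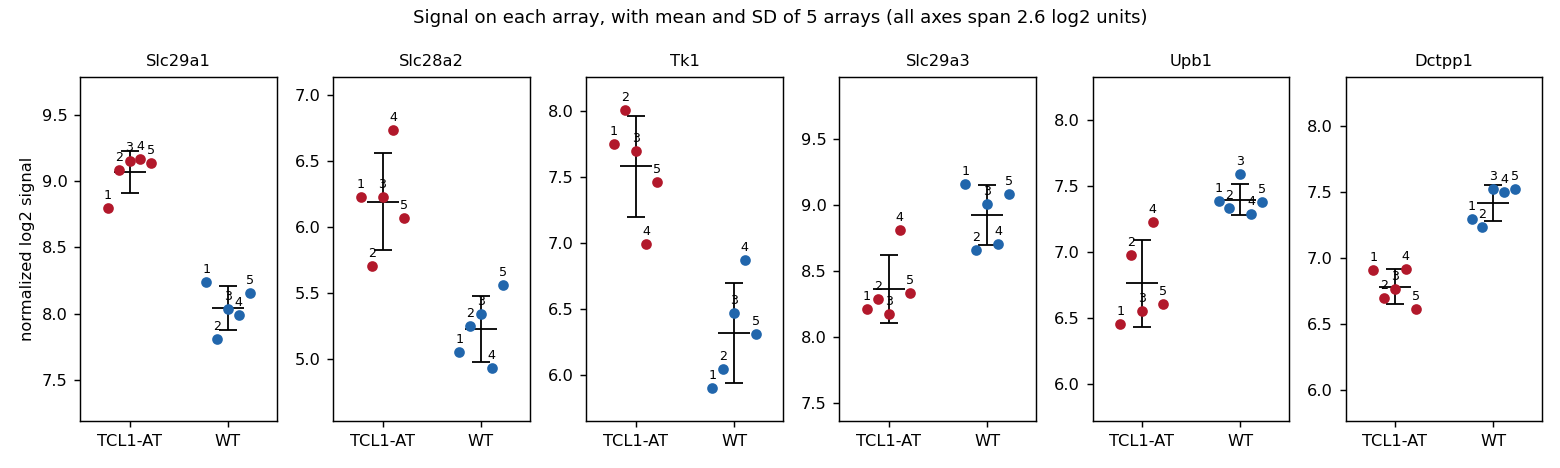
Normalized log2 signal (vertical axes of equal span) of 6 of the called pyrimidine genes, TCL1-AT at the left and WT at the right of each panel; points are arrays numbered by replicate, bars the mean and SD of 5 arrays. The 3 genes at the left were higher and the 3 at the right lower in TCL1-AT, and only Slc29a3 shows overlap, through TCL1-AT 4.

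Among 11505 other named genes, the profile over the 10 arrays most like that of Upp1 probe 1 belonged to Nr1h3 (Pearson r = 0.999), followed by Mmp14, Ackr1, Acot7 and Acod1 (0.999, 0.997, 0.996 and 0.996). Since the arrays form separate groups, these coefficients mostly carry the group difference, and they come with no p-value. Deviations from the group means, over the same 10 arrays, gave 0.83 for Nr1h3 (LXR alpha, a nuclear receptor for oxysterols) and 0.86 for Mmp14, a membrane matrix metalloproteinase, against 0.50 to 0.53 for the other 3. The same measure between Upp1 probe 1 and Upp1's own probes 2 and 3 gave -0.48 and 0.64. Within the TCL1-AT arrays alone, those probe pairs correlated at 0.97 and 0.98. Within the WT arrays, where Upp1 signal was near background, they correlated at -0.80 and 0.71. The pooled deviations take in that WT signal, so they do not show whether these genes follow Upp1 from array to array. The most opposed profiles were those of Tctex1d2, Irf4, Frat2, Acot1 and Hhex, with r from -0.995 to -0.992.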

How the data were processed

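Signal was measured on 10 arrays from 150 ng of total RNA each, 5 TCL1-AT and 5 WT. Per the file headers, the deposited intensity table pairs each probe's intensity with its detection p-value. The intensity values are linear and not normalized. The authors deposited log2 values without a stated method; these differed by at most 0.00043 from neqc of limma 3.58.1 (R 4.3.3), which corrects background with an offset of 16 and normalizes quantiles, and their median was 4.30 on every array. Scanner, software and genome build were not stated in the sources used here.

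The deposited log2 values were fitted with limma (lmFit, eBayes, 2-sided), TCL1-AT minus WT, over the 20241 probes that at least 5 arrays detected (detection p under 0.05); a call means a Benjamini-Hochberg adjusted p under 0.05. The platform annotation named 35784 probes and left 10453 unnamed; symbols were updated through RefSeq (GRCm38.p6) by Entrez identifier for 28620 and by accession for 2637. Other pathway genes were named if called, or where a count needed them, each by its brightest probe. Members and lists were chosen with earlier results of these data known. The fit was tested on simulated data. For arrays, their number limits the precision. Alternatives changed the background correction, scaling, filter, weights, covariates and arrays.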

Additional observations from a re-analysis of the deposited data

Results flagged for a closer look

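In a few groups of 5 arrays, 1 array stood apart by a gap above 0.71 of the group's range, the 95% critical value of Dixon's test. Chance flags about 1 in 20 groups, and 72 groups were examined. TCL1-AT 5 read 4.73 for probe 2 of Umps, with the other TCL1-AT arrays at 5.33 to 5.56. TCL1-AT 3 read 5.76 for Cad, with the others at 5.26 to 5.40. TCL1-AT 1 read 8.80 for Slc29a1, with the others at 9.09 to 9.17. TCL1-AT 4 read 8.81 for Slc29a3, with the others at 8.17 to 8.34. TCL1-AT 3 read 9.59 for Ampd3, with the others at 9.90 to 9.99.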

How the results depend on the processing

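None of the called differences of the 10 enzymes and the listed pyrimidine and purine genes changed sign under any of the 18 alternatives, and neqc of the intensity table gave the same counts as the deposited values. Upp1 probe 1 differed by 5.06 with normexp by maximum likelihood (offset 50), by 5.88 with the raw median signal of the array as a covariate, and by 6.18 to 6.37 with each array left out. The number of called probes of the 10 genes was 8 in the main setting, 5 with median scaling, 5 without a detection filter, 5 with the replicate block, 5 with the raw signal covariate and 5 to 7 with each array left out (5 without TCL1-AT 4, WT 1 or WT 4). These counts are not all subsets of the 8: Uck1 probe 4, not among them, was called lower with the covariate and without WT 3. Over all probes, 2458 higher calls became 1419 with median scaling and 1124 with the raw signal covariate, and 3005 lower calls became 1373 with that covariate; leaving out each array gave 1949 to 2701 and 2423 to 3054. The cause of these shifts was not tested; median raw signal was 90.3 to 93.4 in TCL1-AT and 80.4 to 92.1 in WT. Of the 15 called pyrimidine genes 6 remained with the raw signal covariate, 3 higher and 3 lower: Slc28a2, Slc29a1, Tk1, Nme3, Nme4 and Dctpp1, which kept their calls in all 18 alternatives, as did the 4 purine genes. The groups share replicate numbers, but deviations of same-numbered arrays correlated at only -0.183 to 0.185, so the numbers were not treated as pairs. With the replicate block Upp1 differed by 6.26, and the block moved the counts over all probes to 2035 higher and 2567 lower and left the pyrimidine counts at 5 and 10. Probes near background limit what Tymp, Umps probe 3 and the WT arrays of Upp1 can show.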
